A study of Mus musculus with 7 samples.

Results

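The genes described here are 34 interferon-stimulated genes, a panel listed by name from what is known of the type I interferon response. No threshold on measured values chose them, but the list was drawn up with earlier results of these data known. They were read out of a table of 55414 genes from mouse spleen, and all 34 were among the 16089 genes with enough reads to be tested. Polyadenylated RNA was sequenced from 3 spleen samples labelled WT, with the genotype given as C57BL/6N, and from 4 labelled Fpr2KO, which lack the formyl peptide receptor gene Fpr2. No treatment or infection was named for either group. The sources used here give no age, sex or housing, no strain background for the Fpr2KO mice, and no account of how the deletion was made. The question was whether loss of Fpr2 changes the spleen transcriptome.

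Type I interferons are secreted proteins that bind a receptor made of the Ifnar1 and Ifnar2 chains. The receptor's kinases Jak1 and Tyk2 activate transcription factors, Stat2 and Irf9 among them, that bind a DNA element, the interferon-stimulated response element (ISRE), before target genes. Those targets hold viral RNA sensors, proteins that block viral replication, and feedback inhibitors. Uninfected spleen is known to express many of them at a low tonic level, and plasmacytoid dendritic cells are its best known interferon source.

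Sequence before the start of 6 members is printed because these genes represent the different library patterns described further on. For each, the 250 bases before the RefSeq start are given 5′ to 3′ on the gene's strand (GRCm38.p6), with every match to GAAANNGAAA, the core of the ISRE, in capitals, on either strand. In Isg15 the 3 matches overlap and form 1 run of capitals.
Ifit1 (chr19:34640639-34640888, plus strand): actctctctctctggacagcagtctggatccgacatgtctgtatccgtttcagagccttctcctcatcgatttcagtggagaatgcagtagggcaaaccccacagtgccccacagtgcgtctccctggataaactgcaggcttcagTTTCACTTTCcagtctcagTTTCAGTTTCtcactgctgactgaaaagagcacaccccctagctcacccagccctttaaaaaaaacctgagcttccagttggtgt
Ifit3 (chr19:34583279-34583528, plus strand): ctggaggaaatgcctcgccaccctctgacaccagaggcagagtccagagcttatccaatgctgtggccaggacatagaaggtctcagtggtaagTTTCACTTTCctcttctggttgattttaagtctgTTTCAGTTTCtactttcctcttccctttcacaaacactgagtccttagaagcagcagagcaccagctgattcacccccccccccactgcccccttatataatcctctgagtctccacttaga
Ifit3b (chr19:34607707-34607956, plus strand): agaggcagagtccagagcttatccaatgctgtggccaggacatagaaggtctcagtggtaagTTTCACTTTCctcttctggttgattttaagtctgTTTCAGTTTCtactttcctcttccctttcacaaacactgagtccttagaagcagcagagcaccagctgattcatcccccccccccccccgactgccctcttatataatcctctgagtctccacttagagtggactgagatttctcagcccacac
Rsad2 (chr12:26456453-26456702, minus strand): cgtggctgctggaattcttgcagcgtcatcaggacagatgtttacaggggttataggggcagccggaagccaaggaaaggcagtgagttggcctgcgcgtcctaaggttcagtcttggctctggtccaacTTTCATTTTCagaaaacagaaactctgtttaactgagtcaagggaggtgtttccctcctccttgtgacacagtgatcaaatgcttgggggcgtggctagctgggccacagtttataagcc
Isg15 (chr4:156200819-156201068, minus strand): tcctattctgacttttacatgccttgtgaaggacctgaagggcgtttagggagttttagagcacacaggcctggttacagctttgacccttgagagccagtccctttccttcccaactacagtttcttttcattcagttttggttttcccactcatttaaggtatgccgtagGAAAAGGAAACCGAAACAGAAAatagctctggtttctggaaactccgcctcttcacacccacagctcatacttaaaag
Oas3 (chr5:120777660-120777909, minus strand): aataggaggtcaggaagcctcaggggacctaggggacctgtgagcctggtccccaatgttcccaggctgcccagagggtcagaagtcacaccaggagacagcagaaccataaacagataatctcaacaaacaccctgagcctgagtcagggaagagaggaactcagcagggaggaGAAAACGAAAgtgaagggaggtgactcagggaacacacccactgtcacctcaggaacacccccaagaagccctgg

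At least 1 window of 300 bases, from 250 before to 50 after a start, was held for 25 of the 34 members. The core GAAANNGAAA, counted on both strands, lay in the windows of 14 of these 25, or 56.0%, against 3.99% of 27025 genes. These were Ifit1, Ifit3, Ifit3b, Oas1a, Oas3, Rsad2, Bst2, Eif2ak2, Isg15, Ifih1, Ddx58, Stat2, Trim30a and Cxcl10. The gamma-activated site, searched as TTCNNNGAA, lay in 5 of the 25 windows, against 9.55% of all genes, in Bst2, Eif2ak2, Ifi35, Ifit2 and Oas1a. The panel was chosen for its known response to interferon, so the share of ISRE matches is a description of the panel. Ifit3 and Ifit3b had the same pair of matched sequences, and their transcripts in GENCODE M21 were identical at 98.0% of 1697 aligned bases. Reads from these near copies could have been split between them or left uncounted, so the level of each is uncertain. Reads of Oas1a, Ifi27l2a and Trim30a, which belong to families of close relatives, carry the same uncertainty.

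Library totals ran from 14968605 to 18692809 counts. Levels are given as CPM, reads relative to library size after TMM scaling, and members had between 56 and 6601 reads in a library. The deleted gene, Fpr2, had 537, 479 and 477 reads in WT and 0 in every Fpr2KO library (exact permutation p = 0.0286, the smallest that 3 against 4 samples allow). Nothing in the labels ties each replicate to its own mouse, and the p-values therefore describe spread among these 7 samples, which may be technical. Summed B cell markers (8 genes) lay between 3339 and 3787 CPM and T cell markers (8 genes) between 524 and 779 CPM, so transcripts of both main lymphoid types of spleen were present in every library. In bulk tissue, fewer cells of a type and less RNA per cell cannot be told apart.

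No interferon response gene differed between Fpr2KO and WT spleens beyond the spread between libraries. In edgeR's quasi-likelihood test 0 of 34 members passed an adjusted p under 0.05, where 0.0373% of all genes tested did, and the smallest adjusted p among members was 1.00. Nor was any member under an unadjusted p of 0.05 in edgeR, a level reached by 4.98% of all genes. With single libraries left out, 4 members crossed that level. Without Fpr2KO replicate 3, Eif2ak2 had an edgeR unadjusted p = 0.0203 (adjusted p = 1.00). Without Fpr2KO replicate 1, Samd9l and Oasl1 had edgeR unadjusted p = 0.0300 and 0.0433 (adjusted p = 0.963 for both). Without WT replicate 3, Ifi44 had an edgeR unadjusted p = 0.0396 (adjusted p = 0.753). DESeq2 called 0 members (0.356% of all genes) and limma-voom called 0 (0.0497%). The fitted level was higher in Fpr2KO for 19 members and lower for 15, and 48.6% of all genes were higher. The median log2 fold change was 0.02 over the members and -0.0049 over all genes. In all 34 members the WT and Fpr2KO libraries overlapped, while 5.9% of all genes did not overlap.

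The intervals show what these libraries could resolve. For 30 of the 34 members the 95% interval of the log2 fold change lay within 1 in either direction, so that a change of 2-fold or more lay outside it. The 4 exceptions were Rsad2 (-2.52 to 1.79), Isg15 (-1.46 to 1.34), Cxcl10 (-1.34 to 0.48) and Oas3 (-1.10 to 0.93). These wide intervals came with wide differences between libraries of the same group. The count of members with a higher fitted level also moved with single libraries. It was 29 without Fpr2KO replicate 3, where the median log2 fold change became 0.11, and 13 without WT replicate 1, where it became -0.02. Fpr2KO replicates 1 and 2 carried pancreatic acinar transcripts, with 880 and 502 CPM summed over 12 acinar genes against 23.9 to 49.0 in the other libraries. Without both, 9 members had a higher fitted level and the median was -0.07, and 0 members passed edgeR's test. The part of the acinar tissue in these values was not tested.

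**Figure D1:**
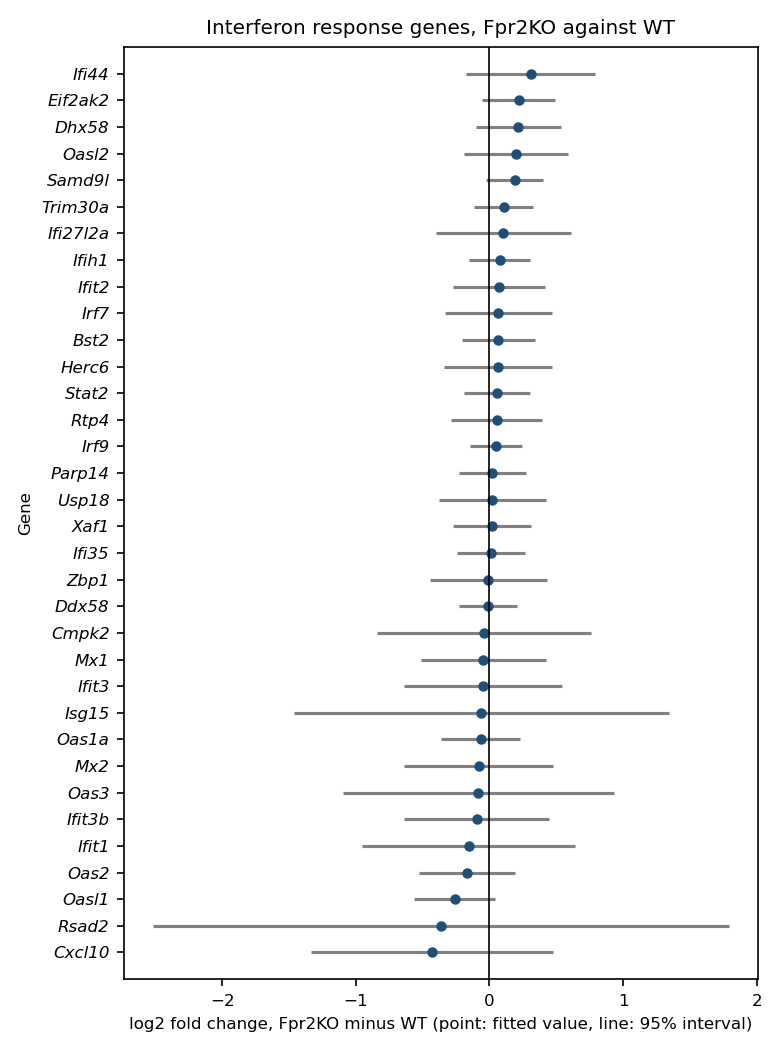
Fitted log2 fold change of each of the 34 genes, Fpr2KO (4 libraries) minus WT (3 libraries), as points on the horizontal axis, with the 95% interval from edgeR's fit as lines. Every interval crosses 0, and the widest belong to Rsad2, Isg15, Oas3 and Cxcl10.

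Among the 3 transcription factor genes, Irf9 varied least between libraries and Irf7 most, with pooled within-group SDs of 0.10 and 0.28 on the log2 scale. Irf9, a DNA-binding subunit that acts with Stat2, had 121, 112 and 111 CPM in WT and 129.9, 117, 108 and 119 CPM in Fpr2KO. The range of the Fpr2KO libraries took in every WT library, and the log2 fold change was 0.05 (SE 0.09; edgeR adjusted p = 1.00). Its pooled SD was the smallest of the panel. Stat2 had a mean of 74.1 ± 9.95 CPM in WT (SD, n = 3, as for every such WT mean here) and 77.0 ± 6.27 in Fpr2KO (SD, n = 4). Irf7, the factor that amplifies interferon production and is itself induced, had 68.2 ± 8.28 CPM in WT and 71.3 ± 16.3 in Fpr2KO, with its extremes in Fpr2KO replicates 1 (90.1) and 3 (53.0).

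The sensors of foreign nucleic acid were also close between groups. Ddx58, which encodes the RNA sensor RIG-I, had 105, 82.9 and 93.1 CPM in WT and 87.9, 99.97, 89.9 and 93.6 CPM in Fpr2KO. All Fpr2KO values lay between the lowest and the highest WT library (log2 fold change -0.01, 95% interval -0.23 to 0.21). Ifih1, the gene of the sensor MDA5, had 40.7 ± 1.16 CPM in WT and 42.8 ± 4.99 in Fpr2KO. Dhx58, the related helicase gene that tunes these sensors, had 22.8, 29.8 and 28.6 CPM in WT and 37.6, 31.4, 25.9 and 30.8 CPM in Fpr2KO. In Dhx58, 3 Fpr2KO libraries lay above all WT libraries and replicate 3 lay among them, with a log2 fold change of 0.22 (SE 0.14). Zbp1, a sensor of Z-form nucleic acid that can start cell death, had 51.0 ± 14.1 CPM in WT and 50.7 ± 8.36 in Fpr2KO.

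Isg15 encodes a ubiquitin-like protein that is attached to other proteins, Herc6 the ligase that attaches it in mouse, and Usp18 the protease that removes it and also restrains the receptor. Isg15 had 63.3, 118 and 47.8 CPM in WT and 135, 38.0, 46.2 and 72.9 CPM in Fpr2KO. The highest and the lowest of these libraries, Fpr2KO replicates 1 and 2, belonged to the same group and differed 3.55-fold. Its log2 fold change was -0.06 (SE 0.56). Usp18 and Herc6 did not share that range. Usp18 had 20.9 ± 3.76 CPM in WT and 21.2 ± 4.203 in Fpr2KO, and Herc6 40.5 ± 5.50 and 42.3 ± 9.91. Reads of Herc6 are uncertain, since 1269 of its exonic bases are shared with a second annotated transcript on the same strand.

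IFIT proteins bind viral RNA and block its translation, and their genes sit side by side on chromosome 19. Ifit1 had 22.6, 38.4 and 33.6 CPM in WT and 34.5, 32.1, 14.3 and 32.1 CPM in Fpr2KO. Replicate 3 of the Fpr2KO group stood below all other libraries, with WT replicate 1 next above it. Ifit3 had 42.4, 61.2 and 62.2 CPM in WT and 49.6, 65.5, 34.1 and 64.2 CPM in Fpr2KO. The near copy Ifit3b had 11.3, 16.4 and 13.9 CPM in WT and 12.04, 16.5, 8.05 and 15.3 CPM in Fpr2KO. In both genes the same libraries were lowest and the groups overlapped throughout. Ifit2 had 33.2 ± 3.76 CPM in WT and 34.9 ± 6.87 in Fpr2KO. The log2 fold changes were -0.16 (SE 0.33) for Ifit1, 0.07 (SE 0.16) for Ifit2, -0.05 (SE 0.25) for Ifit3 and -0.10 (SE 0.24) for Ifit3b.

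The Mx genes encode dynamin-like GTPases that trap viral components, and both are known to be defective in common inbred mouse strains. Mx2 is annotated as a polymorphic pseudogene in GENCODE M21. Mx1 had 17.3 ± 3.05 CPM in WT and 16.7 ± 4.28 in Fpr2KO, and Mx2 had 5.71 ± 1.05 and 5.39 ± 1.501. The libraries at the low end were again Fpr2KO replicate 3, at 11.8 and 3.31 CPM, and WT replicate 1, at 13.8 and 4.62 CPM.

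The OAS family makes short oligoadenylates that switch on an RNA-degrading enzyme, whereas the OASL proteins lack or have little of that activity. Oas3 had 42.4, 47.1 and 26.6 CPM in WT and 59.3, 20.5, 26.4 and 39.7 CPM in Fpr2KO. Its highest and lowest libraries were, as for Isg15, Fpr2KO replicates 1 and 2, and its log2 fold change was -0.08 (SE 0.41). Oasl1, known to limit the translation of Irf7, had 17.3, 17.9 and 15.1 CPM in WT and 16.1, 11.8, 13.1 and 15.05 CPM in Fpr2KO. The lower 3 of these Fpr2KO libraries lay under every WT library and replicate 1 lay among them (log2 fold change -0.26, SE 0.14; edgeR unadjusted p = 0.0863). Oasl2 had 43.8, 35.2 and 37.1 CPM in WT and 57.5, 36.4, 36.1 and 47.8 CPM in Fpr2KO. For Oasl2 the top library was Fpr2KO replicate 1 and the lowest was WT replicate 2, within overlapping ranges. Oas1a had 28.3 ± 4.97 CPM in WT and 27.0 ± 2.74 in Fpr2KO, and Oas2 had 14.99 ± 2.90 and 13.3 ± 1.84.

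Rsad2 differed more between libraries than any other member. It encodes viperin, which makes a chain-terminating nucleotide that stops viral RNA synthesis, and Cmpk2, its neighbour on chromosome 12 (12751 bases away), encodes a kinase that supplies the nucleotide precursor. Rsad2 had 222, 391 and 71.9 CPM in WT and 388, 56.4, 106 and 159 CPM in Fpr2KO. Each group held libraries from both ends of a 6.93-fold range, and the log2 fold change was -0.36 (SE 0.86). Cmpk2 had 40.9, 53.9 and 30.9 CPM in WT and 65.1, 30.04, 32.6 and 34.99 CPM in Fpr2KO. The order of the libraries was almost that of Rsad2, with a narrower 2.17-fold range.

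Among the other effectors, Samd9l and Eif2ak2 were, with Oasl1, the genes with the smallest unadjusted p of the panel. Samd9l, a restriction factor that shuts down translation, had 259, 244 and 254 CPM in WT and 257, 329.5, 289.6 and 274 CPM in Fpr2KO. All but replicate 1 of the Fpr2KO libraries lay above WT, with a log2 fold change of 0.19 (SE 0.10; edgeR unadjusted p = 0.0765, adjusted p = 1.00). Eif2ak2, the gene of the RNA-activated kinase PKR, had 44.0, 42.9 and 45.7 CPM in WT and 57.4, 58.4, 41.8 and 47.8 CPM in Fpr2KO. In Eif2ak2 the WT libraries lay close together and Fpr2KO replicate 3 was the lowest of all 7 (log2 fold change 0.22, SE 0.12; edgeR unadjusted p = 0.103). Bst2, which encodes the virus tether tetherin and is also a marker of plasmacytoid dendritic cells, had 80.3, 97.5 and 115 CPM in WT and 99.6, 108, 92.6 and 109 CPM in Fpr2KO. The WT libraries spanned the whole Fpr2KO range (log2 fold change 0.06, 95% interval -0.21 to 0.34).

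Of the remaining induced genes, Ifi44 had the highest and Cxcl10 the lowest fold change of the panel, and neither passed. Both values moved with single libraries. Cxcl10, at -0.43, was at -0.19 without WT replicate 1, -0.66 without WT replicate 2 and -0.20 without Fpr2KO replicate 1. Rsad2 had the lowest fold change without WT replicate 1, WT replicate 3 or Fpr2KO replicate 1. Ifi44, at 0.31, was at 0.53 without WT replicate 3, 0.19 without WT replicate 1 and 0.20 without Fpr2KO replicate 2. Ifi44 had 5.82, 6.15 and 8.97 CPM in WT and 9.22, 10.6, 6.45 and 8.33 CPM in Fpr2KO. The groups overlapped through WT replicate 3 and Fpr2KO replicates 3 and 4 (SE of the log2 fold change 0.22). Cxcl10, a chemokine that draws T cells and NK cells, had 48.0, 24.2 and 38.4 CPM in WT and 14.0, 36.0, 25.6 and 33.5 CPM in Fpr2KO. Its lowest value fell in Fpr2KO replicate 1, the library in which 13 other members were highest (SE of the log2 fold change 0.37). Ifi27l2a, a small membrane protein gene, had 117, 148 and 205 CPM in WT and 152, 173, 137 and 212 CPM in Fpr2KO. Trim30a, a negative regulator of inflammatory signalling, had 215, 168 and 192 CPM in WT and 208, 223, 191 and 202 CPM in Fpr2KO. Both genes had 1 WT library below all Fpr2KO libraries and otherwise mixed ranges. Parp14, Ifi35, Xaf1 and Rtp4 had log2 fold changes between 0.01 and 0.05.

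Per kilobase of exon, Ifi27l2a was the most abundant member, at a mean of 353 CPM per kilobase, followed by Bst2 (111), Isg15 (98.4), Samd9l (50.2), Trim30a (48.6) and Rsad2 (45.9). On this scale Ifi44 (1.29) and Mx2 (1.53) were the lowest. High abundance did not go with steadiness: among these 6 genes the pooled SD on the log2 scale was 0.12 for Samd9l and 0.13 for Trim30a, but 0.76 for Isg15 and 1.20 for Rsad2.

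The panel as a whole was more variable between libraries of one group than most genes. The pooled within-group SD of log2 CPM had a median of 0.26 over the members and 0.19 over all genes tested. Among the 11002 genes in the members' range of mean CPM, from 5.53 to 273, the median was 0.15, and 29 of the 34 members lay above it. The SD was larger in the Fpr2KO than in the WT libraries for 24 of 34 members, while the same held for 42.2% of all genes. Rsad2, Isg15, Oas3, Cxcl10, Ifit1 and Cmpk2 had the largest SD (1.20, 0.76, 0.59, 0.57, 0.53 and 0.47), and Irf9, Samd9l and Ddx58 the smallest.

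**Figure D2:**
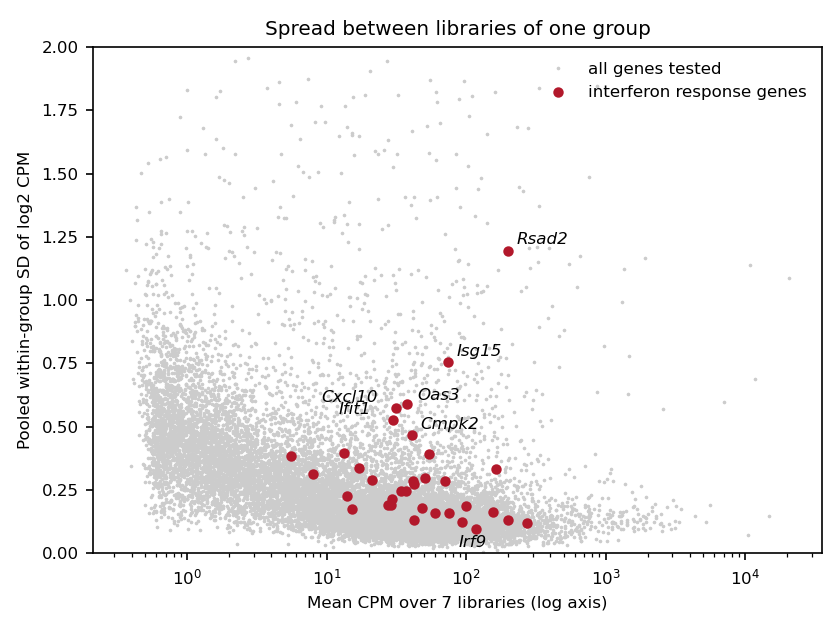
Pooled within-group SD of log2 CPM (vertical axis, which ends at 2 and so leaves out 10 genes) against mean CPM over 7 libraries (horizontal log axis) for all genes tested (grey) and the 34 interferon response genes (red). Most red points lie in the upper part of the grey cloud, and Rsad2 and Isg15 stand highest.

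The libraries at the ends of the range recurred across members. Fpr2KO replicate 3 was the lowest of the 7 libraries for 18 of 34 members (52.9%), against 8.09% of all genes, and the highest for 0. Fpr2KO replicates 1 and 2 were highest for 13 and 10 members (38.2% and 29.4%), against 15.9% and 15.01% of all genes. The median member, centred on its own mean, stood at -0.22 on the log2 scale in Fpr2KO replicate 3, at 0.17 in replicate 1 and at 0.11 in replicate 2 of that group. WT replicates 1, 2 and 3 were at -0.09, -0.03 and 0.0072, and Fpr2KO replicate 4 at 0.08. Members share these libraries and are not independent of each other.

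Within the panel there were at least 2 patterns. In the IFIT and Mx genes, 6 in all, Fpr2KO replicate 3 was the lowest library and WT replicate 1 the second lowest in 6 of 6, and Fpr2KO replicate 2 was the highest in 5 of 6. In Rsad2, Isg15, Oas3 and Cmpk2, by contrast, Fpr2KO replicate 2 was the lowest library and WT replicate 2 and Fpr2KO replicate 1 were the highest. The patterns were seen in these values and not fixed beforehand, and they have no test. Matches to the ISRE core lay before Ifit1, Ifit3 and Ifit3b of the first set and before Rsad2, Isg15 and Oas3 of the second. The windows of Ifit2 and Cmpk2 held no match, and no window was held for Mx1 and Mx2.

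**Figure D3:**
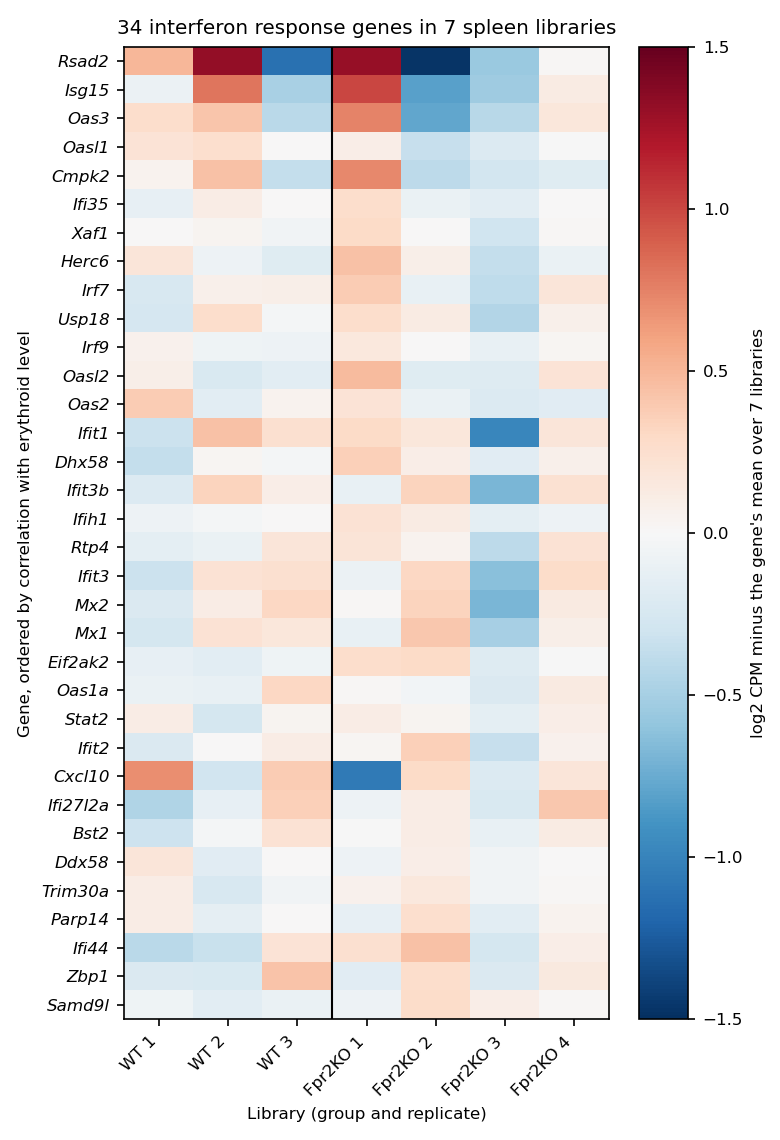
Each of the 34 genes (rows) in each library (columns, WT left of the line and Fpr2KO right), coloured by log2 CPM minus the gene's mean over the 7 libraries, with rows ordered by correlation with the erythroid level. The top rows are high in WT replicate 2 and Fpr2KO replicate 1 and low in Fpr2KO replicate 2, while the IFIT and Mx rows are lowest in Fpr2KO replicate 3.

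Of the genes in the second pattern, Rsad2 moved with the erythroid transcripts of the library by both measures of correlation used, and Cmpk2 by rank alone. The summed CPM of 9 erythroid genes, haemoglobins included, was 42622, 91879 and 14945 in WT and 51383, 10032, 19245 and 25253 in Fpr2KO. Rsad2 put the 7 libraries in exactly this order (Spearman rho 1.00, exact permutation p = 0.000397, the smallest possible, adjusted p = 0.0135; Pearson r 0.97, exact permutation p = 0.000595, adjusted p = 0.0202, on log2 values). Its level changed by 0.97 on the log2 scale for each doubling of the erythroid sum. Adjustment was over the 34 members, all of which were compared with the erythroid sum. It does not cover the choice of this marker list among the others. The comparison was not fixed beforehand, so its p-values, here and below, are descriptive and overstate the support.

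The next 4 genes in this order were Isg15 (r 0.90, rho 0.89), Oas3 (r 0.90, rho 0.93), Oasl1 (r 0.88, rho 0.86) and Cmpk2 (r 0.88, rho 0.96). Their exact permutation p-values for r were 0.00655, 0.00853, 0.00913 and 0.00754, each with an adjusted p of 0.0621. For rho the adjusted permutation p was 0.105, 0.0765, 0.162 and 0.0472, so that Cmpk2 alone of these 4 was under 0.05. Slopes per doubling were 0.56 for Isg15, 0.44 for Oas3, 0.34 for Cmpk2 and 0.17 for Oasl1. The remaining 29 members had r at or under 0.56, down to -0.77 for Samd9l (exact permutation p = 0.0379, adjusted p = 0.215). An r of at least 0.85 was reached by 5 of 34 members (14.7%) and by 5.39% of all genes tested.

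Without WT replicate 2 and Fpr2KO replicate 2, the farthest from the median, r was 0.98 for Rsad2, 0.94 for Oas3, 0.88 for Cmpk2, 0.82 for Isg15 and 0.70 for Oasl1, over 5 libraries. With both groups centred on their own means, r was 0.99 for Rsad2, 0.93 for Isg15, 0.92 for Oas3 and 0.91 for Cmpk2 and Oasl1. The erythroid sum and the members come from the same libraries and share their scaling. Whether red cell precursors hold these transcripts was not tested.

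**Figure D4:**
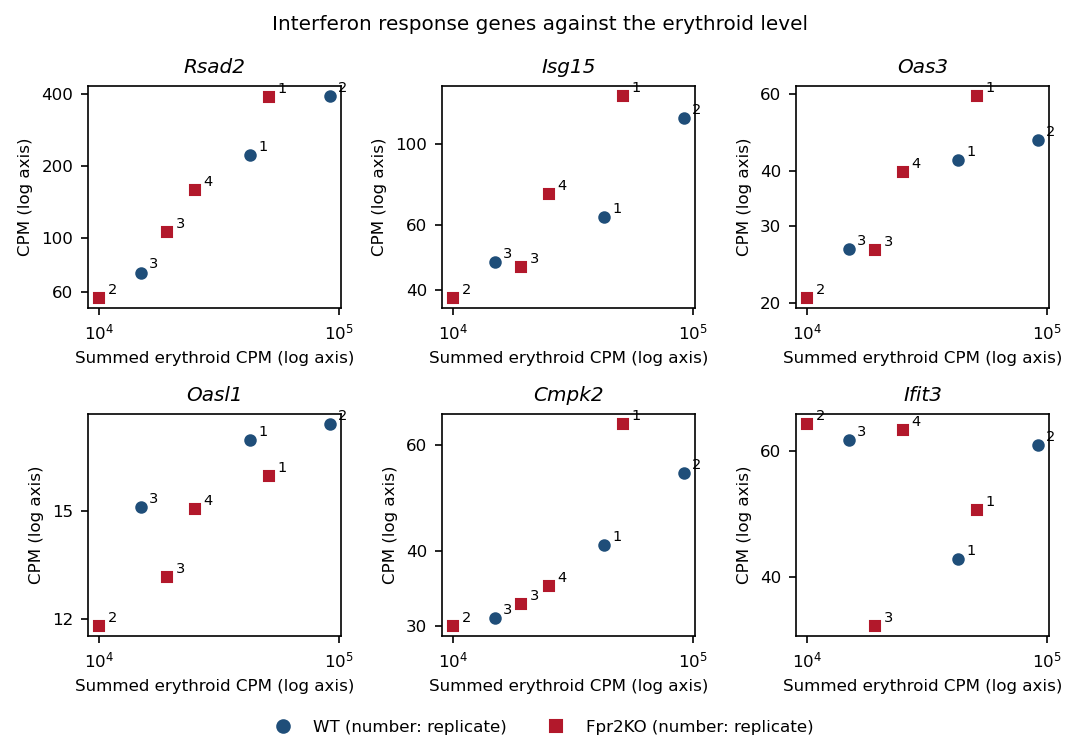
CPM of 6 genes (vertical log axes) against the summed CPM of 9 erythroid genes (horizontal log axes), with 1 point per library, WT as circles and Fpr2KO as squares, numbered by replicate. Rsad2 and Cmpk2 climb from 56.4 and 30.04 CPM in Fpr2KO replicate 2 with the erythroid sum, while Ifit3 does not follow it.

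A fit with the erythroid level as a covariate, added after the data were seen, gave Rsad2 a log2 fold change of 0.44 (SE 0.12; edgeR unadjusted p = 0.00486, adjusted p = 0.397), in the opposite direction to the fit without it. The SE of Rsad2 was 0.86 without the covariate. Isg15, Oas3 and Cmpk2 also changed sign in that fit, to 0.38, 0.24 and 0.24, and 0 members passed.

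Transcripts of the interferons themselves were almost absent. Of 20 type I and type III interferon genes, 18 had 0 reads in all 7 libraries, Ifnb1 had 1 read and Ifnz 3 reads in all libraries together. A count of 0 in a library allows up to 3 reads, or between 0.156 and 0.201 CPM, and this covers counting error only. None of the 20 could be tested. The summed CPM of 10 plasmacytoid dendritic cell markers, none of them at 0, ran from 797 to 829 in WT and from 698 to 851 in Fpr2KO. It was lowest in Fpr2KO replicate 1, and its relation to the levels of the members was not tested.

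The receptor and its first signalling steps were expressed in every library and none of the 4 genes given here passed edgeR's test between groups. Ifnar1 stood at 92.5 ± 8.85 CPM in WT (SD, n = 3) and at 89.7 ± 7.34 in Fpr2KO (SD, n = 4). Ifnar2 had 99.3 ± 8.87 and 98.3 ± 1.61 CPM, and the kinase genes Jak1 and Tyk2 had log2 fold changes of -0.07 (95% interval -0.26 to 0.11) and -0.09 (-0.30 to 0.11).

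Genes that induce interferon, from sensors to kinases and factors, were likewise uncalled by edgeR, which called 0.0373% of all genes. Of 19 listed and tested, 6 were fitted higher in Fpr2KO, against 48.6% of all genes, and 13 lower. The median log2 fold change of these 19 was -0.04. The smallest unadjusted p belonged to Irf5 (0.20, SE 0.09), Myd88 (-0.19, SE 0.11) and Unc93b1 (-0.10, SE 0.08), a transcription factor, an adaptor and a chaperone of Toll-like receptors. Irf5 had 110.3, 123 and 125 CPM in WT and 134, 123, 149 and 143 CPM in Fpr2KO. Replicate 2 of the Fpr2KO group lay among the WT libraries and the other Fpr2KO libraries lay above them.

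Among 14 tested genes that restrain the response, 2 were fitted higher in Fpr2KO, against 48.6% of all genes, and 12 lower, and the median was -0.02. Of these, Nlrx1 and Socs3 had an edgeR unadjusted p under 0.05 (4.98% of all genes) and 0 passed after adjustment. Socs3, a feedback inhibitor of cytokine receptors, had 99.8, 57.5 and 61.8 CPM in WT and 44.6, 46.3, 47.6 and 46.3 CPM in Fpr2KO. Nlrx1, a mitochondrial brake on RNA sensing, had 26.4, 23.2 and 21.5 CPM in WT and 17.5, 17.3, 14.5 and 17.4 CPM in Fpr2KO. The groups did not overlap in either gene, as in 5.9% of all genes (log2 fold changes -0.66, SE 0.17, and -0.50, SE 0.12; edgeR adjusted p = 0.625 and 0.488). Ptpn6 came next by p (-0.15). Neutrophil markers were lower in the same direction: their sum over 15 genes ran from 4116 to 5302 CPM in WT and from 1606 to 3221 in Fpr2KO, with 15 of 15 lower, 0 called by edgeR (0.0373% of all genes) and 5 by DESeq2 (0.356%). The part of neutrophils in the levels of Socs3 and Nlrx1 was not tested.

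Of a longer list of 59 further interferon-stimulated genes, 32 had a higher fitted level in Fpr2KO, against 48.6% of all genes, and 27 a lower. Their median log2 fold change was 0.01. In this list 0 passed edgeR's or DESeq2's test, against 0.0373% and 0.356% of all genes. Serpina3g (-0.52, SE 0.13) and Slfn1 (-0.45, SE 0.16) had an edgeR unadjusted p under 0.05, against 4.98% of all genes, and their adjusted p was 0.546 and 0.885. Serpina3g, a protease inhibitor gene, had 202, 172 and 225 CPM in WT and 142, 160.2, 113 and 144 CPM in Fpr2KO. Parp11 came next by p (0.20, SE 0.09). WT and Fpr2KO libraries were fully apart in 5 of these 59 genes, against 5.9% of all genes. Serpina3g, Slfn1, Slfn2 and Parp10 were the lower ones in Fpr2KO and Parp11 the higher one, with Slfn2 and Parp10 named after their values were seen. In this list Isg20 and Ube2l6, also named after their values were seen, varied most between libraries (pooled within-group SDs 0.89 and 0.98). Isg20 had 194.5, 388 and 94.5 CPM in WT and 243, 66.1, 105 and 143 CPM in Fpr2KO. Ube2l6 had 460, 937 and 199 CPM in WT and 577, 139, 237 and 352 CPM in Fpr2KO. Their log2 fold changes were -0.69 (SE 0.64) and -0.70 (SE 0.70). Both put the 7 libraries in the order of the erythroid sum, as Rsad2 did, which was not tested. Of 18 tested genes known chiefly from the interferon gamma response, 5 were fitted higher, against 48.6% of all genes, and 13 lower. Their median was -0.04 and edgeR called 0, against 0.0373% of all genes. Ifng itself had 0.901 ± 0.215 CPM in WT and 1.34 ± 0.443 in Fpr2KO (log2 fold change 0.57, SE 0.36), Jak2 was at -0.10 and Gbp5 at -0.14.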

How the data were processed

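Reads per Ensembl gene in 7 spleen libraries were analysed as raw counts, deposited by the authors as 1 table. The tools named in the submitters' processing notes are FastQC 0.10.1 and HTSeq 0.10.0, and the build is mm10 (GRCm38). The aligner, the annotation and the strand setting are not given in the sources used here. Of 55414 gene IDs, 52133 matched GENCODE M21, with 99.8% of the counts. Exons of 11 members overlap another gene, on the same strand for 4, and such reads may be uncounted.

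The 34 members, the lists and the tests were chosen with earlier results of these data known. Groups came from the sample titles. edgeR 4.0.16 (R 4.3.3) was run over all genes with TMM scaling, filterByExpr and the robust quasi-likelihood F test, with Benjamini-Hochberg adjustment over 16089 genes. SE is the size of the log2 fold change divided by the square root of F. log2 CPM used a prior count of 2. Correlations used all 5040 orders of 7 libraries. On simulated data for this comparison (15851 genes), the step recovered 24%, 68%, 92% and 90% of 50 genes each changed 1.5-, 2-, 3- and 4-fold. The changed genes were drawn at random from the whole table and not from the panel. Members varied more between libraries than most genes, so these rates may be too high for them. CPM in every library is given for members with one of the 6 smallest p, 6 highest levels per kilobase, 6 largest or 3 smallest SD, and for Ifit3 and Ifit3b. Other members are given by mean and SD, apart from Parp14, Ifi35, Xaf1 and Rtp4, given by log2 fold change. Pathway genes outside the receptor list are the 3 with the smallest p of each list, apart from Slfn2, Parp10, Isg20 and Ube2l6. One gene of the receptor list is not reported here. Tried as alternatives were DESeq2 1.42.0, limma-voom with quality weights (limma 3.58.1), RLE scaling and upper-quartile scaling. Other filters, a replicate block, other library sizes, robust estimation off and each library left out were also tried. The quality weights let libraries count unequally wherever limma-voom is named here.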

Additional observations from a re-analysis of the deposited data

Results flagged for a closer look

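Of the 34 genes, 2 had a library far from the other 3 of the Fpr2KO group. The gap test used flags about 1 in 20 groups by chance, and 2 of 34 is close to that rate. Ifit1 had 14.3 CPM in Fpr2KO replicate 3, and the gap to the next library was 0.878 of the whole Fpr2KO range. Cmpk2 had 65.1 CPM in Fpr2KO replicate 1, with a gap of 0.859 of the range. This test was not run on the WT group, with 3 libraries.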

How the results depend on the processing

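The count of interferon genes called was 0 in all settings run: other scalings, DESeq2, limma-voom, other filters, the replicate block, other library sizes, robust estimation off, each library left out, and the fits added after seeing the data (without Fpr2KO replicates 1 and 2, and with the erythroid covariate). The smallest adjusted p of a member in any of them was 0.397. Over all genes, 6 were called, against 58 with DESeq2, 21 with no low count filter, 12 with the erythroid covariate and 5 to 15 with a library left out. With the replicate block 2 genes were called. Same-numbered libraries deviated together only with r of 0.08, -0.43 and -0.07, so the numbers were not taken to pair them. The count of members with a higher fitted level, 19, was 11 with limma-voom, 9 without both Fpr2KO replicates 1 and 2, and 13 to 29 with a library left out. The median within-group SD stayed between 0.258 and 0.261 under the scalings run.

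Of 612 log2 fold changes under other settings, 528 kept their direction and 84 turned it, none of them called. They turned with limma-voom for Ifit2 (-0.085), Usp18 (-0.17), Herc6 (-0.047), Ifih1 (-0.0043), Ddx58 (0.017), Irf7 (-0.10), Rtp4 (-0.073), Xaf1 (-0.089), Parp14 (-0.0053), Ifi35 (-0.068). Without both Fpr2KO replicates 1 and 2 they turned for Ifit2 (-0.10), Usp18 (-0.17), Herc6 (-0.20), Ifih1 (-0.066), Irf9 (-0.0094), Irf7 (-0.048), Rtp4 (-0.035), Xaf1 (-0.13), Parp14 (-0.035), Ifi35 (-0.071). With the replicate block they turned for Usp18 (-0.010), Irf7 (-0.013), Rtp4 (-0.024), Xaf1 (-0.0028), Parp14 (-0.0011), with upper-quartile scaling for Ddx58 (0.0062), Zbp1 (0.0055), and with the erythroid covariate for Oas3 (0.24), Rsad2 (0.44), Cmpk2 (0.24), Isg15 (0.38), Parp14 (-0.055). Leaving out each library gave ranges that cross 0 for Ifit1 (-0.35 to 0.063), Ifit2 (-0.049 to 0.18), Ifit3 (-0.21 to 0.11), Ifit3b (-0.23 to 0.075), Oas1a (-0.14 to 0.089), Oas3 (-0.41 to 0.11), Mx1 (-0.21 to 0.089), Mx2 (-0.22 to 0.091), Rsad2 (-1.08 to 0.27), Cmpk2 (-0.35 to 0.18), Bst2 (-0.057 to 0.20), Isg15 (-0.53 to 0.40), Usp18 (-0.092 to 0.17), Herc6 (-0.079 to 0.18), Ddx58 (-0.094 to 0.079), Zbp1 (-0.12 to 0.24), Stat2 (-0.048 to 0.13), Irf7 (-0.057 to 0.18), Rtp4 (-0.012 to 0.17), Ifi27l2a (-0.066 to 0.35), Xaf1 (-0.074 to 0.11), Parp14 (-0.066 to 0.083), Ifi35 (-0.071 to 0.069). The cause was not tested.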
